A study of Homo sapiens with 9 samples.

Results

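DNA methylation in OVCAR3 cells was followed here at the level of the enzymes and binding proteins that write, read and erase it. The set held 9 genes, chosen by name, and their Ensembl identifiers were matched to symbols in the deposited count matrix. The writers were *DNMT1*, *DNMT3A*, *DNMT3B* and *UHRF1*, the erasers were *TET1*, *TET2*, *TET3* and *TDG*, and the reader was *MBD2*. All 9 were among the 60660 genes of the matrix and among the 17794 that passed the filter on low counts.

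OVCAR3 is an established cell line of high-grade serous ovarian cancer, and the samples were Control, CTCFL-OE and CTCFL-KD, with 3 libraries in each group. Control cells carried the LacZ plasmid pCpGfree-vitroHLacZ, although their label gives no treatment. CTCFL-OE cells carried pCpGfree-vitroHBORIS with the *CTCFL* open reading frame. Both were transient transfections with 2 µg of plasmid, harvested at 48 h. CTCFL-KD cells received siRNAs against *CTCFL*, and their RNA came from an earlier set of experiments, so the knockdown and the experiment cannot be told apart. No library of a control siRNA was analysed here. For the plasmid transfections, each biological replicate was a pool of 3 technical replicates.

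Methylation of cytosine in CpG dinucleotides is copied at each round of replication by DNMT1, which UHRF1 brings to hemimethylated DNA. DNMT3A and DNMT3B place new methyl groups on unmethylated DNA. TET1, TET2 and TET3 oxidise methylcytosine, and TDG cuts out the further oxidised bases so that repair can restore cytosine. MBD2 binds methylated CpG and brings the NuRD corepressor complex to it. CTCFL, also called BORIS, is the germline paralog of CTCF and is silenced by methylation in most adult tissues. The files hold RNA counts only, so no methylation level is reported.

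Each library held between 14332622 and 24490080 counts in total. *CTCFL* had 6, 9 and 10 counts in Control. It had 36, 34 and 72 counts after overexpression and 0, 1 and 0 after knockdown, each group in the direction of its label. CTCFL-KD replicate 1 stood apart from the other libraries. Its TMM factor was 0.775, against 0.945 to 1.09 in the other 8. In that library a trend fitted over transcript length and GC content lowered *TET1* by 0.58 and *TET2* by 0.56 on the log2 scale, and it moved the other 7 genes by between -0.26 and 0.12. In CTCFL-KD replicates 2 and 3 the same trend lay between -0.03 and 0.31. Mitochondrial genes took 6.16% to 6.52% of the counts in Control, 7.4% to 14.9% in CTCFL-OE and 7.80% to 11.8% in CTCFL-KD. With these genes left out before scaling, no call of the 9 changed against Control. All 10 ovarian carcinoma epithelial markers were detected in every library. In CTCFL-KD against Control 7 of them rose, *KRT7* and *WT1* fell and *PAX8* did not pass the edgeR test described below, beside 21.4% and 16.8% of all genes that rose and fell. Their summed level in CPM (counts per 1000000 of the TMM-scaled library size) was 5949 to 6073 in Control, 5017 to 5533 with overexpression and 9929 to 16885 in CTCFL-KD. The 10 fibroblast markers summed to 28.0 to 33.8, 25 to 44.2 and 37.8 to 43.0 CPM, respectively, with *COL3A1* and *DCN* at 0 in all Control libraries. The 10 leukocyte and endothelial markers summed to 8.76 to 10.1, 12.2 to 13.1 and 15.8 to 22.8 CPM, with *CD3E* and *CD68* at no more than 1 count in any library. Of the fibroblast list 4 genes were tested in CTCFL-KD against Control. *COL1A2*, a collagen chain, with 0 counts in each Control library and 156, 239 and 247 in CTCFL-KD, and *POSTN*, at no more than 18 counts, rose. *COL1A1* and *FAP* had log2 fold changes of -0.36 and -0.05 and did not pass. The part of these markers in the results was not tested.

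Promoter sequences are shown for the genes that passed the test in CTCFL-KD against Control and for those that hold a searched motif, since the length and CpG content of these windows differ widely. They are the RefSeq sequences of GRCh38.p14, printed 5' to 3' on the strand of the gene, without the bases that lie in annotated exons other than in windows of 30 bases around a motif. A promoter row at the MANE Select start was matched for 8 of the 9 genes, and not for *DNMT3B*. Capitals mark the letters of a searched motif on either strand, which are the CTCFL core, E2F and E box letters given after the sequences.
UHRF1, chr19:4909251-4909429, plus strand: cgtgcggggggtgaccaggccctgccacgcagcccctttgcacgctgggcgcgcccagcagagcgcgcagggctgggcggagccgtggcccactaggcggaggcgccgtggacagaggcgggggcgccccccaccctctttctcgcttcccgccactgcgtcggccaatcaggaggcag
UHRF1, chr19:4909471-4909500, plus strand, E2F letters in capitals: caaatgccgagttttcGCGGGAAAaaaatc
TDG, chr12:103965709-103965821, plus strand, E box in capitals: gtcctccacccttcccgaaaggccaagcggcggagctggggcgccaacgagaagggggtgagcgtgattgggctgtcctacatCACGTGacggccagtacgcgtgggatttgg
TET3, chr2:73984660-73984909, plus strand, E boxes in capitals: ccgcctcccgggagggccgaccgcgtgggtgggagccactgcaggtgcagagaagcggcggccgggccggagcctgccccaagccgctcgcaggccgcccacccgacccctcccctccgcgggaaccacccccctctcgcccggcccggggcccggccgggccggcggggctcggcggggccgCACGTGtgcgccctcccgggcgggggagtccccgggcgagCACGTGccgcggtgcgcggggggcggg
MBD2, chr18:54224670-54224919, minus strand, CTCFL core in capitals: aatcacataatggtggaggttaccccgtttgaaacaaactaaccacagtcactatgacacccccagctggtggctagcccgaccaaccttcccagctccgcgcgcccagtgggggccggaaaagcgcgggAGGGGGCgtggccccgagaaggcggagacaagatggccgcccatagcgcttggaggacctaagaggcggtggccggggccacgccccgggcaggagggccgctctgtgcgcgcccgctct
TET2, chr4:105146764-105146793, plus strand, CTCFL core in capitals: aagtcacgtccGCCCCCTcggcgcggccgc
DNMT3A, chr2:25341926-25342175, minus strand: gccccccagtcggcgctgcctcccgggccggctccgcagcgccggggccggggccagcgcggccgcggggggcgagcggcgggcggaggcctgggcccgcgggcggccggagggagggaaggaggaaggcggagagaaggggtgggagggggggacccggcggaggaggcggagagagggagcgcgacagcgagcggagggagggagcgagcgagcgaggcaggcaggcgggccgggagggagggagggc

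In the 250 bases before the start, the 8 matched genes held 9 CpG in *TET1*, 21 in *DNMT1* and *MBD2*, 22 in *TDG*, 28 in *UHRF1*, 33 in *DNMT3A*, 34 in *TET2* and 37 in *TET3*. The median over 35116 promoter rows was 11, so 7 of the 8 lay above it. The core letters AGGGGGC of the CTCFL motif, searched on both strands, were found at -120 in *MBD2* and at -101 in *TET2*, and 13.3% of all rows held them. Of the letters of the E2F motif, TTTCCCGC or TTTGGCGC, a match was found at -14 in *UHRF1* alone of the 8, and 1.93% of rows held either. The E box CACGTG was found at -67 and -27 in *TET3* and at -80 in *TDG*, and 6.34% of rows held it. No searched motif overlapped another in these windows. A match describes letters only.

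The levels of the 9 genes in Control differed over a wide range. Per kilobase of the MANE Select transcript, *DNMT1* had the highest level with 40.4 ± 1.65 CPM (SD, n = 3), followed by *TDG* with 29.7 ± 0.93 and *DNMT3B* with 17.4 ± 0.34. *UHRF1* had 15 ± 0.50 and *MBD2* 12.8 ± 0.50 CPM per kilobase. The lowest levels per kilobase were those of *TET3* at 5.19 ± 0.42, *TET2* at 4.47 ± 0.30, *DNMT3A* at 4.34 ± 0.15 and *TET1* at 1.63 ± 0.15. The libraries of *TET2* and *DNMT3A* overlapped in this order, and those of *TET3* and *TET2* lay side by side, with 4.74 as the lowest of the first and 4.72 as the highest of the second. The length matters for the top of the order, since with all annotated exons counted *TDG* had 19.4 and *DNMT1* 13.8 CPM per kilobase, and *DNMT3B*, at 11, came after *MBD2* and *UHRF1*, both at 11.4.

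**Figure D1:**
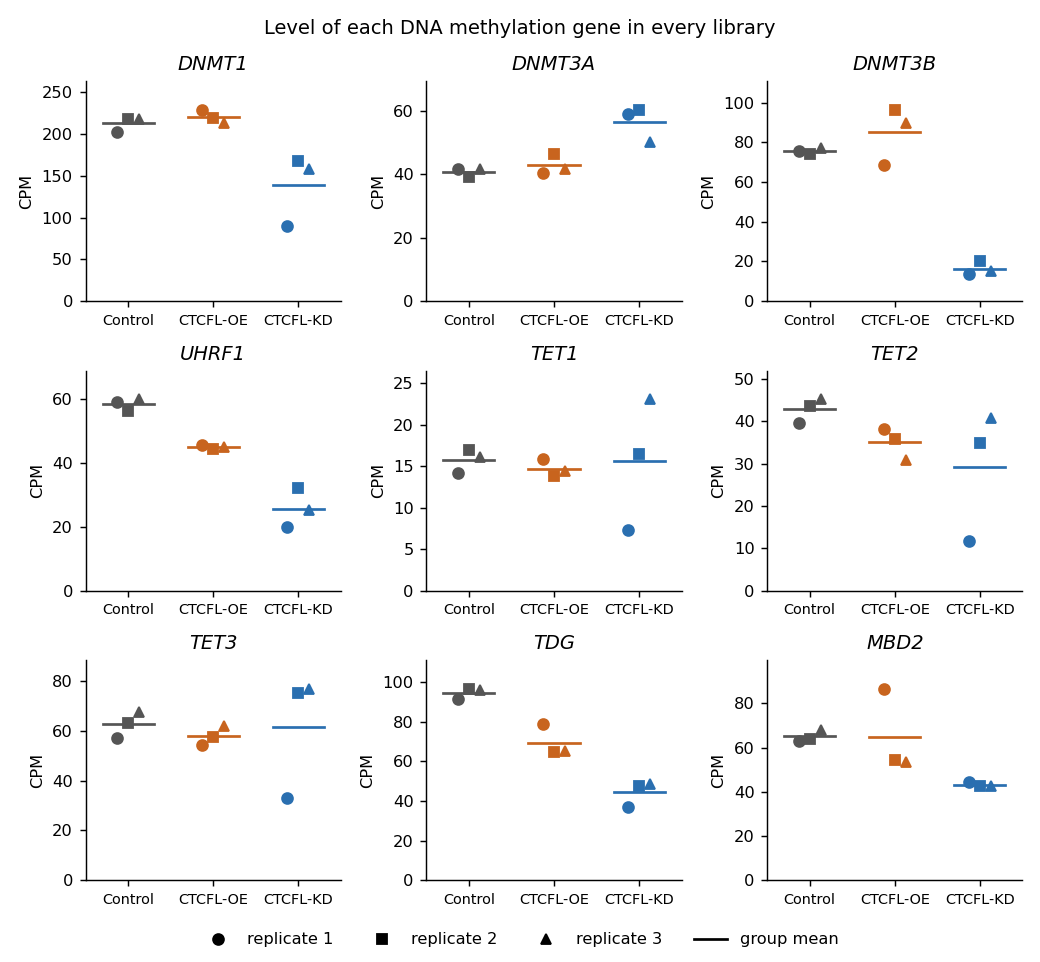
Level of each of the 9 genes in CPM (vertical axis, from 0) in every library of the 3 groups, with the replicate number as the symbol and the group mean as a line. *DNMT3B* lies between 13.4 and 20.1 CPM in CTCFL-KD and at 68.8 CPM or more in the other 6 libraries, and CTCFL-KD replicate 1 is the lowest of the 9 libraries for the 3 TET genes.

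The writer *DNMT3B*, the maintenance factor *UHRF1* and the eraser *TDG* were lower in CTCFL-KD than in Control by more than 2-fold, and the reader *MBD2* by less. *DNMT3A* was higher in CTCFL-KD, while *DNMT1* fell just short of the threshold and the 3 TET genes did not pass it. In all, 5 of 9 genes passed the test (1 higher and 4 lower), against 38.2% of all genes tested, of which 21.4% rose and 16.8% fell. A log2 fold change beyond 1 as well was found for 3 of the 9, all lower, against 23.2% of all genes in either direction and 7.94% lower. The count was 3 when any 1 Control replicate was left out and 6 without CTCFL-KD replicate 1. The median log2 fold change of the 9 was -0.59 and that of all genes 0.08. The test was the quasi-likelihood test of edgeR, called edgeR QL here, with p-values adjusted by the Benjamini-Hochberg method over all 17794 genes and a threshold of 0.05 in CTCFL-KD and of 0.1 in CTCFL-OE. In bulk RNA, fewer cells that express a gene and less RNA per cell cannot be told apart.

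*DNMT3B*, the de novo methyltransferase most active in embryonic cells, showed the largest change of the 9. It had 1513, 1906 and 1521 counts in Control and 149, 338 and 276 in CTCFL-KD, or 75.8, 74.1 and 77.0 against 13.4, 20.1 and 15.1 CPM. All CTCFL-KD libraries lay far below all Control libraries. The level was 4.65-fold lower, a log2 fold change of -2.22 with a standard error of 0.21 (adjusted p = 2.72e-05, edgeR QL). It passed the test in 21 of 21 other ways of processing, with log2 fold changes between -2.45 and -2.10.

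*DNMT3A*, its close relative, went the other way. Its 3 Control libraries had 41.7, 39.3 and 41.7 CPM and its CTCFL-KD libraries 59.3, 60.5 and 50.3 CPM, with no overlap. The log2 fold change was 0.47 with a standard error of 0.16 (adjusted p = 0.0344, edgeR QL). This call held under 11 of 21 alternatives. It was lost with the replicate number as a block, where the adjusted p of edgeR QL was 0.059, without the filter on low counts, and without any 1 Control replicate, CTCFL-OE replicate 2 or CTCFL-KD replicate 2. With trends of length and GC content removed from each library, the log2 fold change was 0.25 and the adjusted p 0.239, and the range of adjusted p over the 21 alternatives was 0.0095 to 0.267.

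The ratio of *DNMT3B* to *DNMT3A* counts within a library does not depend on how libraries are scaled. It was 1.82, 1.88 and 1.85 in Control, and 1.70, 2.07 and 2.16 with overexpression. With knockdown it was 0.227, 0.332 and 0.301. The CTCFL-KD libraries were thus the only ones with more reads on *DNMT3A* than on *DNMT3B*. Corrected for transcript length, *DNMT3B* exceeded *DNMT3A* by 3.95-fold to 4.09-fold in Control, and the ratio was 0.493 to 0.722 in CTCFL-KD. Of the summed level per kilobase of the 3 methyltransferases, *DNMT3B* made up 28.1% ± 0.825 (SD, n = 3) in Control and 10.5% ± 1.39 in CTCFL-KD. *DNMT3A* made up 6.99% ± 0.332 and 17.5% ± 5.46, and *DNMT1* 64.9% ± 1.16 and 72.0% ± 6.65. The sum itself was 62.2 ± 1.63 CPM per kilobase in Control and 36.0 ± 8.53 in CTCFL-KD.

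**Figure D2:**
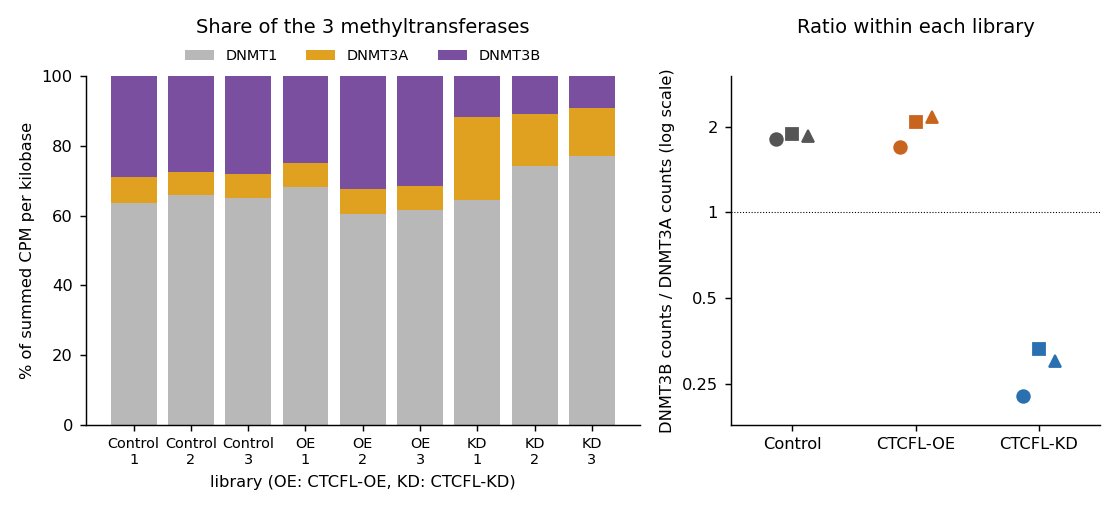
Left, the share (%) of *DNMT1*, *DNMT3A* and *DNMT3B* in their summed CPM per kilobase in each of the 9 libraries; right, the ratio of *DNMT3B* to *DNMT3A* counts in each library on a log axis, with circles, squares and triangles for replicates 1, 2 and 3. The ratio lies between 1.70 and 2.16 in the 6 Control and CTCFL-OE libraries and between 0.227 and 0.332 in CTCFL-KD.

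*DNMT1*, the maintenance methyltransferase, had 203, 218 and 218 CPM in Control and 90.1, 168 and 158 in CTCFL-KD. The groups did not overlap, and CTCFL-KD replicate 1 was the lowest library. The log2 fold change was -0.62 with a standard error of 0.23, just above the threshold of 0.05 (adjusted p = 0.0510, edgeR QL). With the replicate block on all 9 libraries it was -0.65 and passed (adjusted p = 0.046, edgeR QL), and with the block in a fit of only these groups it was -0.67 and did not (adjusted p = 0.068, edgeR QL). Without CTCFL-KD replicate 1 the change was smaller, at -0.38, and also passed (adjusted p = 0.014, edgeR QL). It passed under 7 of 21 alternatives, over which the adjusted p ranged from 0.00214 to 0.128. *S1PR2* lies on the same strand and shares exon bases with *DNMT1*. Up to 588 counts per library fell on *S1PR2*, and how reads on shared bases were assigned is not given in the sources used here.

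*UHRF1*, which recognises hemimethylated CpG and recruits DNMT1, had 59.2, 56.3 and 60.0 CPM in Control and 19.8, 32.2 and 25.3 in CTCFL-KD, without overlap. It was 2.27-fold lower, with a log2 fold change of -1.18 and a standard error of 0.19 (adjusted p = 0.000779, edgeR QL). The call held in 21 of 21 alternatives. The ratio of *UHRF1* to *DNMT1* counts was 0.292, 0.259 and 0.275 in Control and 0.220, 0.192 and 0.160 in CTCFL-KD. The ratio was lower in each CTCFL-KD library, replicate 1 included, than in any Control library.

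Among the erasers, *TDG*, the glycosylase that removes oxidised methylcytosine, had 91.2, 96.4 and 96.2 CPM in Control and 37.1, 47.6 and 48.3 in CTCFL-KD. The groups lay far apart. *TDG* was 2.13-fold lower, with a log2 fold change of -1.09 and a standard error of 0.17 (adjusted p = 0.000694, edgeR QL), and the call held in 21 of 21 alternatives. *TDGP1*, a processed copy of the gene, held at most 88 counts in a library, while *TDG* had at least 411.

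The 3 TET dioxygenases did not pass the test, and CTCFL-KD replicate 1 was the lowest library for all of them. *TET1* had 14.2, 16.9 and 16.1 CPM in Control and 7.31, 16.5 and 23.1 in CTCFL-KD, so that the groups overlapped on both sides. *TET2* had 39.7, 43.8 and 45.2 CPM in Control and 11.7, 35.0 and 40.9 in CTCFL-KD, where 1 library lay among those of Control. *TET3* had 57.1, 63.2 and 67.3 CPM in Control and 32.9, 75 and 76.7 in CTCFL-KD, with replicates 2 and 3 above and replicate 1 below every Control library. The log2 fold changes were 0.00 for *TET1*, -0.55 for *TET2* and -0.02 for *TET3*, with standard errors of 0.32, 0.35 and 0.27 (adjusted p = 0.998, 0.234 and 0.959, edgeR QL). Without CTCFL-KD replicate 1 they were 0.33, -0.17 and 0.28, and none passed. With the trends of length and GC content removed, *TET2* passed, with a log2 fold change of -0.64 (adjusted p = 0.027, edgeR QL). Of the summed TET level per kilobase, *TET3* made up 45.9% ± 0.667 in Control and 53.5% ± 4.55 in CTCFL-KD, and *TET2* 39.6% ± 0.307 and 30.1% ± 3.62 (SD, n = 3).

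*MBD2*, the reader of the set, had 63.2, 64.1 and 68.0 CPM in Control. Its CTCFL-KD libraries were close together, at 44.4, 42.6 and 42.8 CPM, and below all of Control. The log2 fold change was -0.59 with a standard error of 0.20 (adjusted p = 0.0390, edgeR QL). The 5 alternatives in which it did not pass each left out 1 library, CTCFL-KD replicate 2 or 3 or a Control replicate, with adjusted p between 0.081 and 0.115 by edgeR QL.

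**Figure D3:**
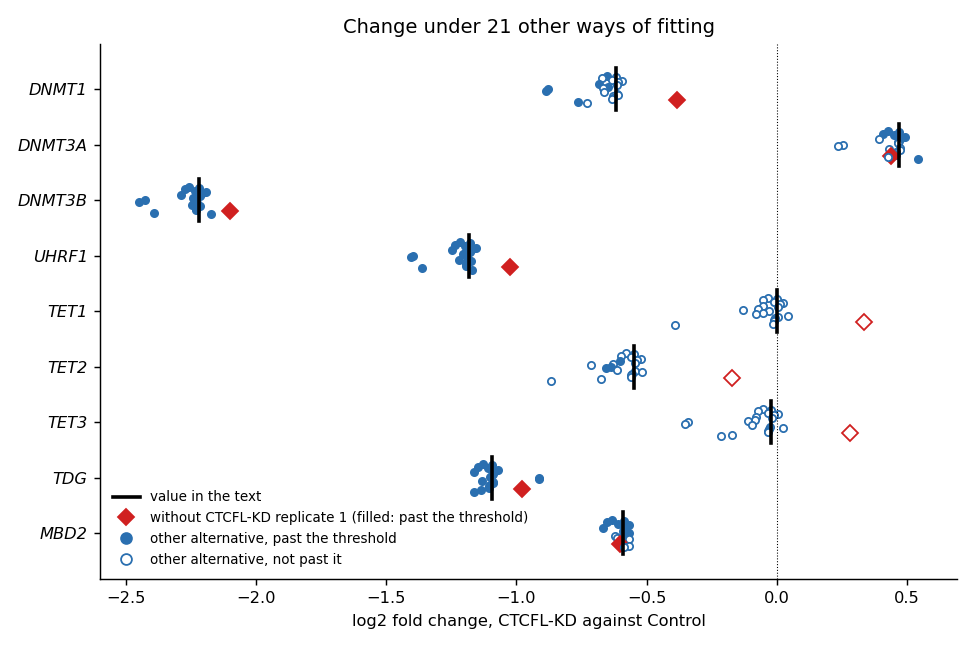
log2 fold change of the 9 genes in CTCFL-KD against Control (horizontal axis) as given in the text (black bar) and under 21 other ways of fitting (points, filled where the adjusted p was under 0.05), with the fit without CTCFL-KD replicate 1 as red diamonds. *DNMT3B*, *UHRF1* and *TDG* stay past the threshold throughout, while the values of *TET1* range from -0.39 to 0.33.

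Overexpression of *CTCFL* moved none of the 9 past the threshold of 0.1. At an unadjusted p under 0.05 there was 1 of 9, *TDG*, and DESeq2 on all 9 libraries also called none. Of all genes tested, 3.15% passed the adjusted threshold and 17.7% the unadjusted one. The median log2 fold change of the 9 was -0.10, against -0.01 over all genes. In 3 of the 9 the CTCFL-OE libraries did not overlap those of Control, as in 37.1% of all genes, and all 3 were lower.

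These 3 were *UHRF1*, *TDG* and *TET2*. *UHRF1* had 45.8, 44.3 and 44.9 CPM in CTCFL-OE, a narrow range below the 56.3 to 60.0 of Control, with a log2 fold change of -0.38 and a standard error of 0.18 (adjusted p = 0.311, edgeR QL). The ratio of *UHRF1* to *DNMT1* counts was 0.200, 0.202 and 0.210 in CTCFL-OE, below the 0.259 to 0.292 of Control. *TDG* had 78.6, 64.7 and 65.0 CPM, with a log2 fold change of -0.45 and a standard error of 0.17 (adjusted p = 0.206, edgeR QL). *TET2* had 38.2, 36.0 and 31.0 CPM, with a log2 fold change of -0.29 and a standard error of 0.35 (adjusted p = 0.687, edgeR QL). When only the Control and CTCFL-OE libraries were fitted, the adjusted p of edgeR QL was 0.052 for *UHRF1* and 0.056 for *TDG*, both under 0.1. Without CTCFL-KD replicate 1, which enters the shared estimate of the spread, the adjusted p of edgeR QL was 0.040 for *UHRF1*, 0.022 for *TDG* and 0.099 for *TET2*. The count of genes called overall rose from 561 to 5040 in that fit. Without CTCFL-OE replicate 1, *TDG* alone passed (adjusted p = 0.082, edgeR QL).

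The other 6 overlapped between CTCFL-OE and Control. *DNMT1* had 229, 219 and 214 CPM in CTCFL-OE, *DNMT3A* 40.5, 46.6 and 41.6, and *DNMT3B* 68.8, 96.5 and 89.7. *TET1* had 15.8, 13.8 and 14.4 CPM and *TET3* 54.3, 57.6 and 61.9. *MBD2* was split within the group, with 86.5 CPM in CTCFL-OE replicate 1 and 54.5 and 53.6 CPM in replicates 2 and 3, so that Control lay between them. In the same libraries mitochondrial genes took 7.4%, 12.4% and 14.9% of the counts. Log2 fold changes of the 6 lay between -0.11 and 0.17, and their adjusted p between 0.678 and 0.996 in edgeR QL.

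**Figure D4:**
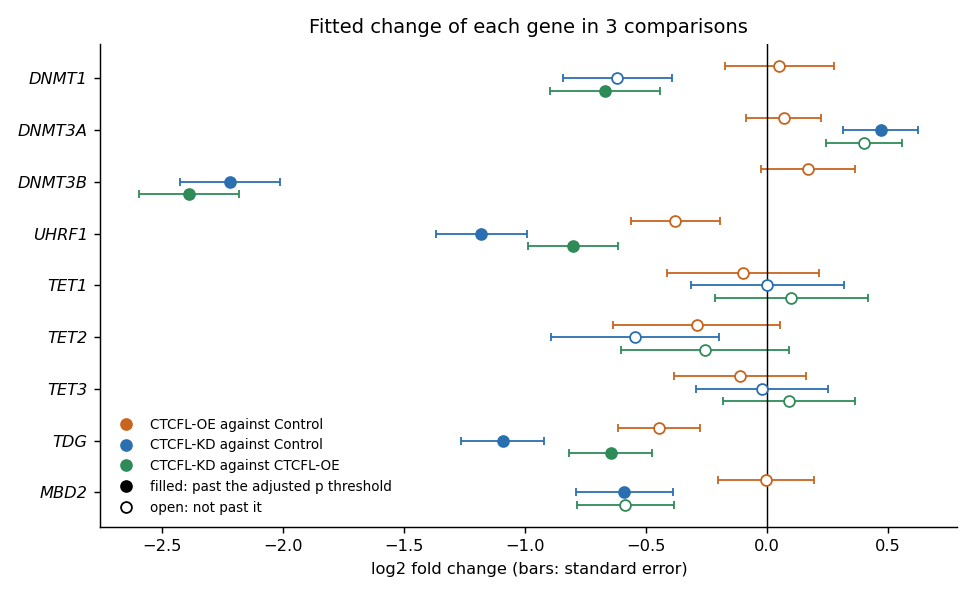
log2 fold change (horizontal axis, bars are standard errors, n = 3 libraries per group) of the 9 genes in CTCFL-OE against Control, CTCFL-KD against Control and CTCFL-KD against CTCFL-OE. Filled points passed the adjusted p threshold, which 5 genes did in CTCFL-KD against Control, 4 in CTCFL-KD against CTCFL-OE and 0 in CTCFL-OE against Control.

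Both comparisons above share the 3 Control libraries. The direct comparison of CTCFL-KD with CTCFL-OE does not use their values as a reference, and it sets low against high *CTCFL*. These groups also differ in siRNA against plasmid and in the set of experiments, which cannot be told apart from the *CTCFL* level. Here 4 of the 9 genes passed a threshold of 0.05 and all 4 were lower in CTCFL-KD, against 26.8% of all genes, 15.3% higher and 11.5% lower. The count was 7 of 9 without CTCFL-KD replicate 1 and 1 of 9, *DNMT3B*, where only these groups were fitted by edgeR QL, against 3 of 9 by DESeq2 on the same groups. *DNMT3B* was 5.23-fold lower in CTCFL-KD than in CTCFL-OE, with a log2 difference of -2.39 and a standard error of 0.21 (adjusted p = 2.99e-05, edgeR QL). *UHRF1* differed by -0.80 and *TDG* by -0.65 on the log2 scale, with standard errors of 0.19 and 0.17 (adjusted p = 0.00956 and 0.0172, edgeR QL). The values for *DNMT1* were -0.67 and 0.23 (adjusted p = 0.0496, edgeR QL), and this call held under 10 of 21 alternatives, with -0.44 without CTCFL-KD replicate 1. For *UHRF1* and *TDG* the call was lost where only these groups were fitted by edgeR QL (adjusted p = 0.052 and 0.084), and was kept by DESeq2 on the same groups (adjusted p = 0.019 and 0.049). *MBD2* and *DNMT3A* had log2 differences of -0.59 and 0.40 and did not pass (adjusted p = 0.0518 and 0.0781, edgeR QL). Both did so without CTCFL-KD replicate 1 (adjusted p = 0.030 and 0.029, edgeR QL). *TET3* also passed without that library, at 0.39 and higher in CTCFL-KD (adjusted p = 0.019, edgeR QL). In 6 of the 9 the groups did not overlap, as in 39.8% of all genes, and in CTCFL-KD against Control this was also 6, against 56.3% of all genes.

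Beyond the 9, 41 further genes of DNA methylation were counted by role, of which 37 were tested. In CTCFL-KD against Control, 5 of the 37 rose, 9 fell and 23 did not pass, against 21.4% and 16.8% of all genes that rose and fell and 38.2% in either direction, with a median log2 fold change of -0.19. With length and GC trends removed, 4 rose and 15 fell, and 4 and 11 were higher and lower than in CTCFL-OE. Without CTCFL-KD replicate 1, 7 rose and 12 fell, while 9, 8 and 6 passed without Control replicate 1, 2 and 3. With the replicate block 4 rose and 9 fell, and 3 and 6 where only the CTCFL-KD and Control libraries were fitted. In CTCFL-OE 0 of the 37 passed edgeR QL and 6 had an unadjusted p under 0.05, beside 3.15% and 17.7% of all genes, and DESeq2 on all 9 libraries called 2, *MAT2A* and *NEIL1*, which are named because of those values. Without CTCFL-KD replicate 1, 13 of the 37 passed in CTCFL-OE, and 3 without CTCFL-OE replicate 1. Fits of only the Control and CTCFL-OE libraries called 4 higher and 6 lower by edgeR QL. These were 3 and 4 with the replicate block, and 4 and 7 by DESeq2. Against CTCFL-OE, 4 were higher and 5 lower in CTCFL-KD, beside 15.3% and 11.5% of all genes, and 15 passed without CTCFL-KD replicate 1, 3 without CTCFL-OE replicate 2 and 5 without CTCFL-OE replicate 3 or any 1 Control replicate.

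Of 10 tested cofactors of the writers, 0 rose and 6 fell in CTCFL-KD, beside the 21.4% and 16.8% of all genes, with a median log2 fold change of -0.61. Without Control replicate 3, 3 fell. A rise at an unadjusted p under 0.05 was seen for 1, and DESeq2 on all 9 libraries called 1 higher and 6 lower. *CDCA7*, which works with the remodeller HELLS and is needed for methylation of repeats, had 733, 995 and 757 counts in Control and 133, 401 and 370 in CTCFL-KD. Its log2 fold change was -1.01 with a standard error of 0.23 (adjusted p = 0.00597, edgeR QL). *HELLS* itself fell by 0.61 on the log2 scale (adjusted p = 0.0377, edgeR QL), and did not pass without any 1 Control replicate or CTCFL-OE replicate 2 (adjusted p from 0.051 to 0.098, edgeR QL). It fell by 0.41 without CTCFL-KD replicate 1. *UHRF2*, the paralog of *UHRF1*, had 36.7 ± 0.657 CPM in Control and 35.3 ± 7.45 in CTCFL-KD (SD, n = 3), with a log2 fold change of -0.05 (adjusted p = 0.849, edgeR QL). The other cofactors that fell were *USP7*, a deubiquitinase that acts on UHRF1 and DNMT1, the replication clamp *PCNA*, and the histone demethylases *KDM1A* and *KDM1B*, both of which did not pass without Control replicate 3 (adjusted p = 0.054 and 0.061, edgeR QL). *DNMT3L*, the inactive partner of the de novo enzymes in germ cells, had between 0 and 3 counts per library and was not tested.

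Of 9 other genes listed here as readers, 1 rose and 1 fell in CTCFL-KD, beside 38.2% of all genes in either direction. With length and GC trends removed, 0 rose and 4 fell. *MBD3*, the NuRD subunit that is an alternative to MBD2, rose by 0.84 on the log2 scale with a standard error of 0.28 (adjusted p = 0.0359, edgeR QL). It had 892, 1082 and 893 counts in Control and 1372, 938 and 1040 in CTCFL-KD, with replicate 1 the highest. Without that library the log2 fold change was 0.36 (adjusted p = 0.014, edgeR QL). The call was lost when any 1 Control or CTCFL-OE replicate was left out, with adjusted p from 0.053 to 0.110 by edgeR QL. *MBD4*, a glycosylase that binds methylated CpG, fell by 0.56 (adjusted p = 0.0136, edgeR QL), and did not pass without Control replicate 2 (adjusted p = 0.068, edgeR QL).

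Of 13 genes of demethylation and base excision repair, 3 rose and 1 fell, beside 21.4% and 16.8% of all genes. The 3 were *GADD45G*, *NEIL1* and *APEX1*. *GADD45A* fell, by 0.57 on the log2 scale (adjusted p = 0.0439, edgeR QL). This call was lost without any 1 Control replicate, CTCFL-OE replicate 2 or CTCFL-KD replicate 2 (adjusted p from 0.061 to 0.160, edgeR QL). *GADD45G*, a stress gene linked to active demethylation, had 18, 9 and 6 counts in Control and 77, 42 and 46 after knockdown, with 2.91 as the log2 fold change at low counts (standard error 0.51, adjusted p = 0.00136, edgeR QL). It was 2.29 without CTCFL-KD replicate 1 and 3.53 without Control replicate 1. *NEIL1*, a DNA glycosylase, had 1.88 ± 0.618 CPM in Control, 4.34 ± 1.78 with overexpression and 4.82 ± 0.746 with knockdown (SD, n = 3), and its log2 fold change in CTCFL-KD was 1.34 (adjusted p = 0.0112, edgeR QL, and 0.052 without Control replicate 3). *APEX1*, the endonuclease that acts after TDG, had 107 ± 3.61 CPM in Control and 206 ± 32.3 with knockdown, and its log2 fold change was 0.95 (adjusted p = 0.00173, edgeR QL). Of 5 tested genes of methyl donor supply, 1 rose and 1 fell, beside 21.4% and 16.8% of all genes. *MAT2B*, a subunit of methionine adenosyltransferase, was the gene that fell, by 0.69 on the log2 scale (adjusted p = 0.0302, edgeR QL). It did not pass without any 1 Control replicate or CTCFL-KD replicate 2 (adjusted p from 0.053 to 0.091, edgeR QL).

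**Figure D5:**
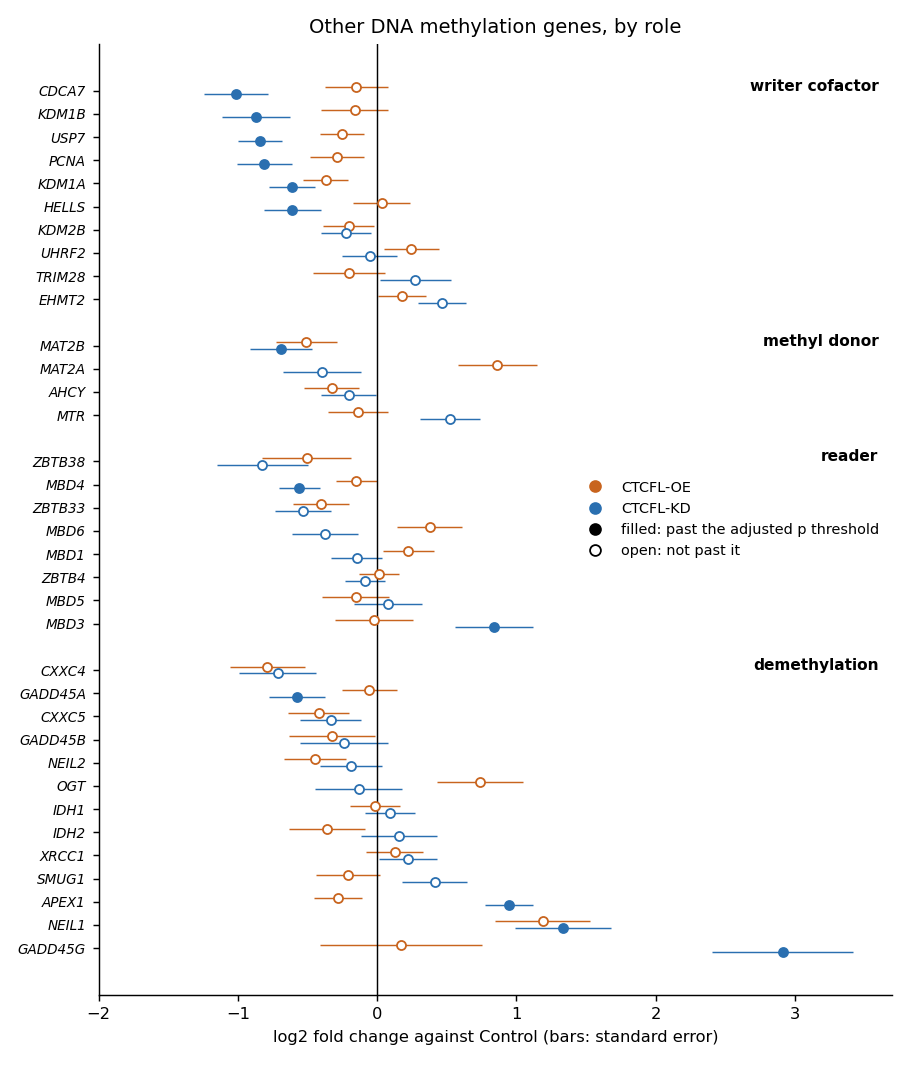
log2 fold change against Control (horizontal axis, bars are standard errors, n = 3 libraries per group) of the further DNA methylation genes that were tested and are reported here, grouped by role, in CTCFL-OE and CTCFL-KD. Filled points passed the adjusted p threshold, which 6 of 10 writer cofactors did in CTCFL-KD, all to the left of 0, and none of the genes shown did in CTCFL-OE.

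Several of these genes, *DNMT1* and *UHRF1* among them, are transcribed mostly in dividing cells, so a list of 20 genes of S phase and mitosis was counted beside them. *PCNA* is in this list and also among the writer cofactors above, so it is counted in each. In CTCFL-KD against Control 11 of the 20 fell, 0 rose and 9 did not pass edgeR QL, beside 16.8% and 21.4% of all genes that fell and rose, with a median log2 fold change of -0.72. No gene of the 20 rose at an unadjusted p under 0.05 (0 of 20) or by DESeq2 on all 9 libraries (0 of 20). Without CTCFL-KD replicate 1, 15 fell, and with length and GC trends removed 17 fell. Their summed level was 3116 to 3245 CPM in Control, 2954 to 3305 with overexpression and 2013 to 2360 in CTCFL-KD. *PCNA* fell by 0.81 on the log2 scale (adjusted p = 0.00849, edgeR QL). *MKI67*, *MCM2* and *E2F1* had log2 fold changes of -0.46, -0.71 and 0.51 and did not pass (adjusted p = 0.132, 0.0739 and 0.128, edgeR QL). *MCM2* passed without CTCFL-KD replicate 1 or 2, at -0.39 and -0.96 (adjusted p = 0.018 and 0.036, edgeR QL). In CTCFL-OE 0 of the 20 passed and 3 had an unadjusted p under 0.05, beside 3.15% and 17.7% of all genes, and DESeq2 on all 9 libraries called 1, *MCM6*, while 9 passed without CTCFL-KD replicate 1 and 1 without CTCFL-OE replicate 1. Fits of only the Control and CTCFL-OE libraries called 2 of the 20 higher and 4 lower by edgeR QL. These were 1 and 0 with the replicate block, and 1 and 6 by DESeq2. The part of proliferation in the lower levels of the writers was not tested.

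Germline genes that are silenced by promoter methylation were counted as well. Of 22 genes, only 6 had counts enough for the test, and 8 to 13 of the 22 were at 0 in any library. A count of 0 allows up to 3 counts, or 0.117 to 0.271 CPM. In CTCFL-KD 0 of the 6 rose and 1 fell by edgeR QL, beside 21.4% and 16.8% of all genes. At an unadjusted p under 0.05, 1 rose, and DESeq2 on all 9 libraries called 0 higher and 2 lower. The count was 2 without Control replicate 3, CTCFL-KD replicate 1 or CTCFL-KD replicate 2. Without Control replicate 3 or CTCFL-KD replicate 2, 1 of these rose and 1 fell, and without CTCFL-KD replicate 1 both fell. *SSX2*, a cancer-testis antigen, had 879, 1167 and 902 counts in Control, 1632, 1462 and 1009 with overexpression and 269, 293 and 280 with knockdown. Its level in CTCFL-KD was below all Control libraries, with a log2 fold change of -1.25 and a standard error of 0.20 (adjusted p = 0.000738, edgeR QL). In CTCFL-OE 0 of the 6 passed and 1 had an unadjusted p under 0.05, beside 3.15% and 17.7% of all genes, and DESeq2 on all 9 libraries called 1, again *SSX2*. Without CTCFL-KD replicate 1, 2 of the 6 passed in CTCFL-OE.

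Across the 9 libraries, the genes with the pattern most like that of each of the 9 were looked up by Pearson's r of log2 CPM among 9770 genes with a mean of at least 10 CPM. These correlations describe 3 groups of 3 libraries that share their condition but differ in depth. The nearest gene was *MYO10* for *DNMT1* (r = 0.997), *ZNF266* for *DNMT3A* (r = 0.969), *TXNRD1* for *DNMT3B* (r = 0.993) and *RHOBTB2* for *UHRF1* (r = 0.997). For the erasers it was *JMY* for *TET1* (r = 0.991), *SMG1P3* for *TET2* (r = 0.996), *NSD3* for *TET3* (r = 0.987) and *CNN3* for *TDG* (r = 0.998). For *MBD2* it was *TBC1D1* (r = 0.976). The second in order was *CKAP5* for *DNMT1*, *ZNF783* for *DNMT3A*, *QRICH1* for *DNMT3B*, *FUBP1* for *UHRF1*, *PRKAA2* for *TET1*, *ZNF281* for *TET2*, *INTS2* for *TET3*, *HNRNPF* for *TDG* and *LMO3* for *MBD2*. The number of genes with r above 0.95 was 476 for *TDG*, 310 for *UHRF1*, 299 for *DNMT1*, 284 for *TET2* and 155 for *DNMT3B*. It was 50 for *TET3*, 20 for *TET1*, 8 for *MBD2* and 4 for *DNMT3A*, whose profiles few other genes followed.

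In CTCFL-KD the order of levels per kilobase differed from that in Control. *DNMT1* at 26.3 ± 8.02 and *TDG* at 13.9 ± 1.97 CPM per kilobase (SD, n = 3) stayed at the top and *TET1* at 1.62 ± 0.82 at the bottom. Between them came *MBD2* at 8.54 ± 0.19, *UHRF1* at 6.61 ± 1.58, *DNMT3A* at 6.02 ± 0.59, *TET3* at 5.10 ± 2.06, *DNMT3B* at 3.74 ± 0.80 and *TET2* at 3.05 ± 1.61. *DNMT3B*, the third highest in Control by this length, came after *DNMT3A* here, with no overlap of their libraries, which had 3.10 to 4.63 and 5.34 to 6.42 CPM per kilobase. The libraries of *UHRF1*, *DNMT3A* and *TET3* overlapped, as did those of *DNMT3B*, *TET2* and *TET3*. In CTCFL-OE *DNMT1* had 41.8 ± 1.5, *TDG* 21.8 ± 2.5 and *DNMT3B* 19.6 ± 3.32 CPM per kilobase, and the libraries of the last pair overlapped.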

How the data were processed

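RNA-seq counts were analysed for 9 libraries of OVCAR3 cells, with 3 biological replicates per condition, grouped by the labels. The authors ran Trimmomatic on the reads and aligned these with STAR against GRCh38. Counts per gene came from featureCounts, and they were deposited without normalization. The submitters' processing notes also name kallisto. Which annotation was used, whether strand was counted and how reads with several alignments were handled is not given in the sources used here. Each of the 9 library files was equal to its column of the matrix. Of 60660 identifiers, 60419 were matched to GENCODE release 44, which gave symbols, positions and lengths.

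Genes were filtered with filterByExpr and libraries scaled by TMM in edgeR 4.0.16 (R 4.3.3). The quasi-likelihood fit with robust estimation used all 9 libraries and the condition as the only factor, so that the groups share 1 estimate of the spread, and p-values were adjusted by the Benjamini-Hochberg method over 17794 genes. A gene passed at an adjusted p under 0.1 in CTCFL-OE and under 0.05 in the comparisons of CTCFL-KD. Standard errors are the log2 fold change divided by the root of the F statistic. The scripts were tested on simulated counts. Total counts per library were 14332622 to 24490080, and limits from counts cover counting error only. Tables and figures used Python 3.11.15, pandas 2.3.3, numpy 2.4.6 and matplotlib 3.10.9.

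The 9 genes and the lists beside them were chosen with earlier results of these data known. All 9 are named. Of the 41 further genes, the 4 that passed with the largest change at a mean of at least 1 CPM are named in each comparison with Control, plus *UHRF2*, *HELLS*, *MBD3*, *MBD4* and *DNMT3L*. Of the germline genes, up to 3 that passed with the largest change were to be named, and only *SSX2* passed. *MKI67*, *PCNA*, *MCM2* and *E2F1* stand for the proliferation list. Log2 CPM for likeness had a prior count of 2. Some genes of these lists are counted but not reported here by name. Other genes named in the text were chosen after their values were seen.

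Same-numbered Control and CTCFL-KD libraries deviated together from their group means. Their correlations over 11622 genes were 0.384, 0.221 and 0.265. With trends of length and GC content removed they were lower, at 0.172, 0.138 and 0.161. The sources describe separate experiments, and whether the replicate number pairs these libraries was not tested. For CTCFL-OE and Control they were -0.045, 0.225 and -0.050. The alternatives were DESeq2 1.42.0, edgeR on the compared groups alone, RLE and upper-quartile scaling, no mitochondrial genes, no filter, at least 10 counts in every library, the replicate block, removal of length and GC trends fitted with mgcv 1.9.3, and each library left out. Alternatives for the counts of the further lists were added after the data were seen.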

Additional observations from a re-analysis of the deposited data

How the results depend on the processing

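In CTCFL-KD against Control, *DNMT3B*, *UHRF1* and *TDG* kept their direction and passed under all 21 alternatives. The count of the 9 genes that passed ranged from 3 to 6 when 1 library was left out, the 3 arising without each Control replicate. In CTCFL-OE against Control, where none passed, 2 did when edgeR, DESeq2 or edgeR with a replicate block was fitted to these groups alone, and leaving out 1 library gave 0 to 3. In CTCFL-KD against CTCFL-OE, 4 passed, against 1 in the fits to these groups alone by edgeR without or with the replicate block, and 3 to 7 with 1 library left out. The replicate block on all libraries, with 6567 genes called in CTCFL-KD against 6800 without it, gave *DNMT1* and *DNMT3A* other calls in CTCFL-KD, as given above, and changed no other call of the 9 there.

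Of all genes, 561 passed in CTCFL-OE. The count was 1373 with DESeq2 on all libraries, 3450 with edgeR and 3775 with DESeq2 on the compared groups alone, 1517 without the filter, 3052 with the replicate block on those groups, 1681 without length and GC trends, 1633 without them and with the block, and 44 to 5040 with 1 library left out. The lowest counts of all genes came without a Control replicate (44, 45 and 61) or CTCFL-OE replicate 2 or 3 (79 and 117), and the highest without CTCFL-OE replicate 1 (2780) or CTCFL-KD replicate 1 (5040). In CTCFL-KD against CTCFL-OE it was 4771, against 2668 with edgeR and 1983 with the block on these groups alone and 3181 to 7297 with 1 library left out, the highest without CTCFL-KD replicate 1. The cause of these shifts was not tested. Of the genes called in CTCFL-OE, 63.1% were higher, against 74.0% without the filter and 37.8% to 66.4% with 1 library left out. This share was 37.8%, 41.0% and 40.9% without Control replicate 1, 2 and 3, 45.3% without CTCFL-OE replicate 3 and 51.1% without CTCFL-KD replicate 1.

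No value that changed sign passed the test. In CTCFL-OE, *DNMT1* had -0.0605 and *DNMT3A* -0.0502 without length and GC trends, and -0.0551 and -0.0539 with the replicate block added. *MBD2* in CTCFL-OE had 0.0365 with edgeR and 0.0063 with DESeq2 on these groups alone, 0.0071 with RLE, 0.0498 with upper-quartile scaling, 0.0038 without mitochondrial genes, 0.0151 with at least 10 counts, 0.0004 with the replicate block on these groups, 0.0068 without trends, and -0.2749 to 0.1102 with 1 library left out. *TET1* in CTCFL-KD against Control had -0.0335 and -0.0521 with DESeq2 on all libraries and on these groups, -0.0117 with RLE, -0.0545 without the filter, -0.0715 and -0.1295 with the replicate block on all libraries and on these groups, -0.0295 without trends, -0.0527 without trends and with the block, and -0.3925 to 0.3346 with 1 library left out. *TET3* had 0.0051 with upper-quartile scaling and -0.2128 to 0.2818 with 1 library left out. Against CTCFL-OE, the replicate block on these groups gave -0.032 for *TET1* and -0.0029 for *TET3*, and *TET3* had -0.0898 without trends and -0.1118 with the block added. Leaving out 1 library gave -0.2892 to 0.4324 for *TET1*, -0.5735 to 0.1161 for *TET2* and -0.0982 to 0.3903 for *TET3*. Each of the 9 genes had at least 81 counts in every library, whereas depth limits what the germline genes can show. With 1 library left out, the group concerned kept 2, and its spread was shared with the others.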
